A study of Mus musculus with 2 samples.

Results

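Lor, Flg2, Hrnr, Lce1m and Crct1 are 5 genes of the outermost living layers of the epidermis. They were chosen by name from the 480 genes of a custom Xenium panel, which images and decodes individual transcripts within tissue. Every decoded transcript of these names with a quality score of at least 20 was counted, 49165 in the Utx-cKO section and 56723 in the WT section. The tested section came from the Utx-cKO line, in which a Krt14-Cre driver deletes Kdm6a (Utx), a histone demethylase, wherever keratin 14 is made. The WT section carried no such deletion by its label. Both came from whole skin of B6/129 female mice, fixed, embedded in paraffin and cut at 5 µm, and neither was given a treatment. The tissue lay in 4 strips per section, and the labels name no animal, age or body site for any strip. Strips are therefore no replicates, there was 1 section per group, and no difference was tested. Intervals are exact at 95% and cover counting error alone.

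During cornification, keratinocytes leave the basal layer, pass through a spinous and a granular layer and die as flattened corneocytes. Proteins made in the granular layer are packed into keratohyalin granules or crosslinked by transglutaminases beneath the membrane into the cornified envelope. Loricrin (Lor) is a major protein of that envelope, and Lce1m belongs to the late cornified envelope family. Filaggrin 2 (Flg2) and hornerin (Hrnr) are large repeat proteins of keratohyalin, related to filaggrin. Crct1 encodes a small cysteine-rich protein. The upper hair follicle opens to the surface and is lined by a keratinising epithelium of its own, marked by Krt79.

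All 5 genes lie on mouse chromosome 3, in the cluster known as the epidermal differentiation complex. In the RefSeq gene order Crct1 and Lce1m are neighbours, and Flg2 and Hrnr stand on either side of Flg. The RefSeq promoter table (build GRCm38.p6) matched 4 of the 5 members, Lor, Lce1m, Flg2 and Hrnr. The 120 bases before each gene's start are shown because these genes share a place of expression. Capitals mark the TATA box letters TATAAA and the AP-1 letters TGANTCA, searched on both strands.
Lor, chr3:92083143-92083262, minus strand: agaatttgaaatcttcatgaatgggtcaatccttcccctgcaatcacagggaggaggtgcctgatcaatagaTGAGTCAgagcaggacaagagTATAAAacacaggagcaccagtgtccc
Lce1m, chr3:93019062-93019181, minus strand: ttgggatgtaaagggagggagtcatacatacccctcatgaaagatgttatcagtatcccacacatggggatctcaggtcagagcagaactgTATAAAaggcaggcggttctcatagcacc
Flg2, chr3:93197153-93197272, plus strand: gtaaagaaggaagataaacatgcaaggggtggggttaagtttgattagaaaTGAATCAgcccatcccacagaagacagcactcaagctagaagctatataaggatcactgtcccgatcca
Hrnr, chr3:93319629-93319748, plus strand: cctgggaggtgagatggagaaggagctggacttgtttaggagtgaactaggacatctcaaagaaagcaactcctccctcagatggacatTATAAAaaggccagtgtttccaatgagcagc
TATAAA began 27 bases before the start of Lor, 29 before Lce1m and 31 before Hrnr. TGANTCA began 48 bases before the start of Lor and 69 before Flg2. Over all 32851 promoters of the table, 6.34% held TATAAA and 3.41% held TGANTCA in a window of that length. Other forms of the TATA box were not searched, so an unmarked sequence such as that of Flg2 may still hold one. A match is a description of letters only.

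The Utx-cKO section held 2875112 panel transcripts of sufficient score and 52308 cells, and the WT section 3540184 transcripts and 40371 cells. Kdm6a transcripts remained in the Utx-cKO section at 2121 CPM (counts scaled to 1000000 panel transcripts), against 2291 CPM in WT. The labels do not place its probes inside or outside the deleted sequence. Of the members' decoded transcripts, 66.1% to 71.2% passed the score in Utx-cKO and 69.0% to 74.8% in WT, below the 78.4% and 80.4% of all genes. The highest negative control probe had 207 transcripts in Utx-cKO and 128 in WT, well under the lowest member, Lce1m, with 4320 and 4857. Dermal cells, called from markers such as Pdgfra, gave a background of 78.5 to 322 CPM per member in Utx-cKO and 52.7 to 207 CPM in WT. The 2 cell tables shared 2 cell identifiers.

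The members lay where their names place them. Surface epidermis was taken as tissue within 40 µm of the outer edge and 30 µm of a keratinocyte, with the edge drawn from other genes. It held 90.3% of Lor transcripts in Utx-cKO and 90.2% in WT, and 92.4% and 95.1% of Lce1m. For Flg2 it held 83.8% in Utx-cKO and 90.4% in WT, and for Hrnr 82.5% and 87.2%. Crct1 stood apart, with 47.5% (46.5% to 48.4%) at the surface in Utx-cKO and 64.4% (63.5% to 65.4%) in WT. Most of the rest of Crct1 lay deeper, along upper follicles.

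**Figure D1:**
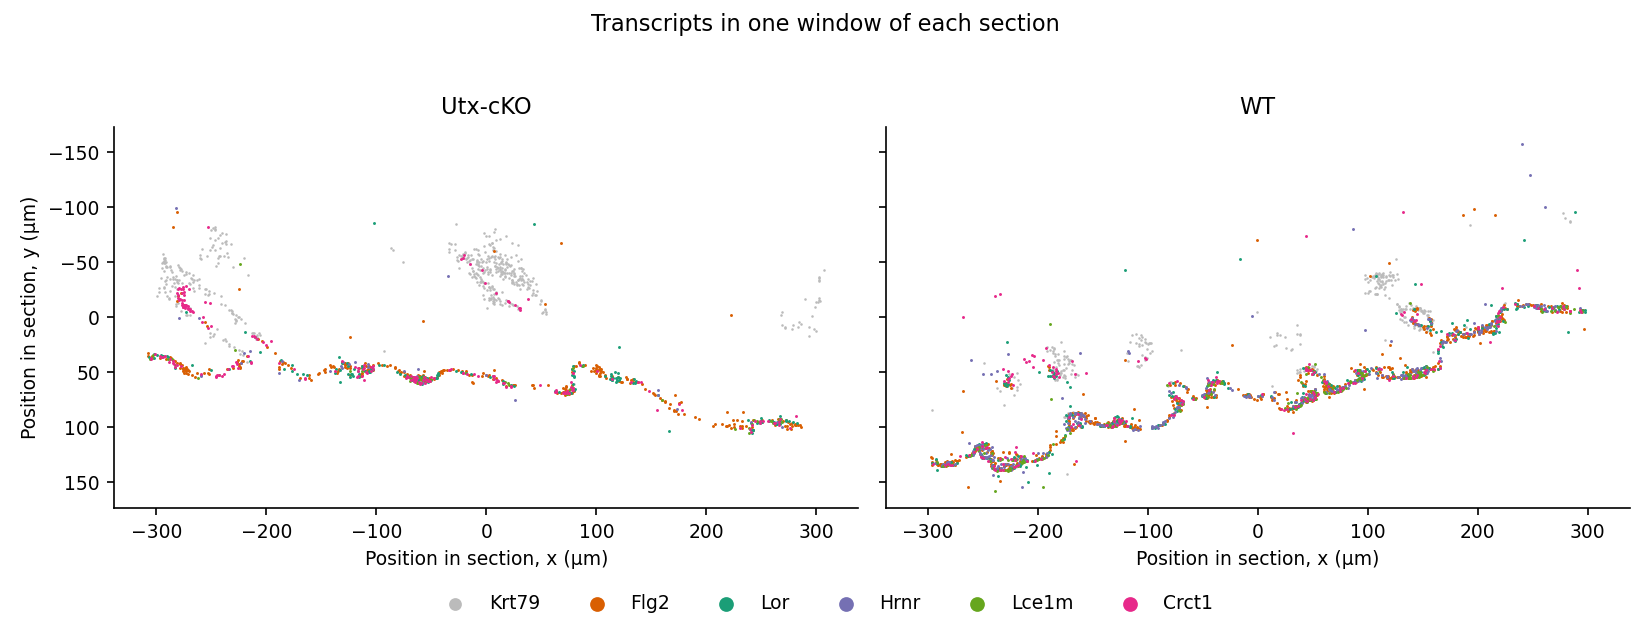
Positions of single transcripts (points, µm) within 160 µm of the outer edge in one 600-µm stretch of the Utx-cKO section (left) and of the WT section (right), each the stretch with the section's median number of Crct1 transcripts. The 5 members trace the surface as a thin line, and Crct1 also lies beside Krt79, a marker of the upper follicle shown in grey.

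Along the depth of the surface epidermis the 5 genes occupied nearly the same thin layer. Transcripts near upper follicle cells were left out of these positions. The median distance from the outer edge was 7.98 µm for Lce1m, 8.21 µm for Crct1, 8.29 µm for Lor, 8.49 µm for Flg2 and 8.70 µm for Hrnr in Utx-cKO. In WT it was 8.60, 8.19, 8.61, 8.88 and 9.68 µm in the same order of genes. Krt1, a keratin of the spinous layer, lay at 12.5 µm in Utx-cKO and 12.8 µm in WT, and Krt15, a keratin of basal cells, at 14.7 and 14.9 µm. The members ranked 1, 2, 3, 5 and 8 of 264 genes in nearness to the edge in Utx-cKO, and between 1 and 10 of 274 genes in WT.

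Hrnr was the innermost of the 5 by its section medians of distance from the outer edge and of height above the nearest basal cell. Lor, Lce1m and Crct1 each lay outside Hrnr in 8 of 8 strips, whether measured from the outer edge or as height above the nearest basal cell. Flg2 lay outside Hrnr in 8 of 8 strips from the edge and in 7 of 8 by height. Crct1 lay outside Flg2 in 8 of 8 strips by height and in 6 of 8 from the edge. Lce1m lay outside Lor in 7 of 8 strips by height and 6 of 8 from the edge. Between Crct1 and Lce1m there was no fixed order, with 4 of 8 strips either way by height. The steps were small: the median height of Hrnr minus that of Lce1m was -0.54 µm in Utx-cKO and -0.84 µm in WT. Measured from the nearest dermal cell instead, the difference reversed in Utx-cKO, as given in the last section.

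**Figure D2:**
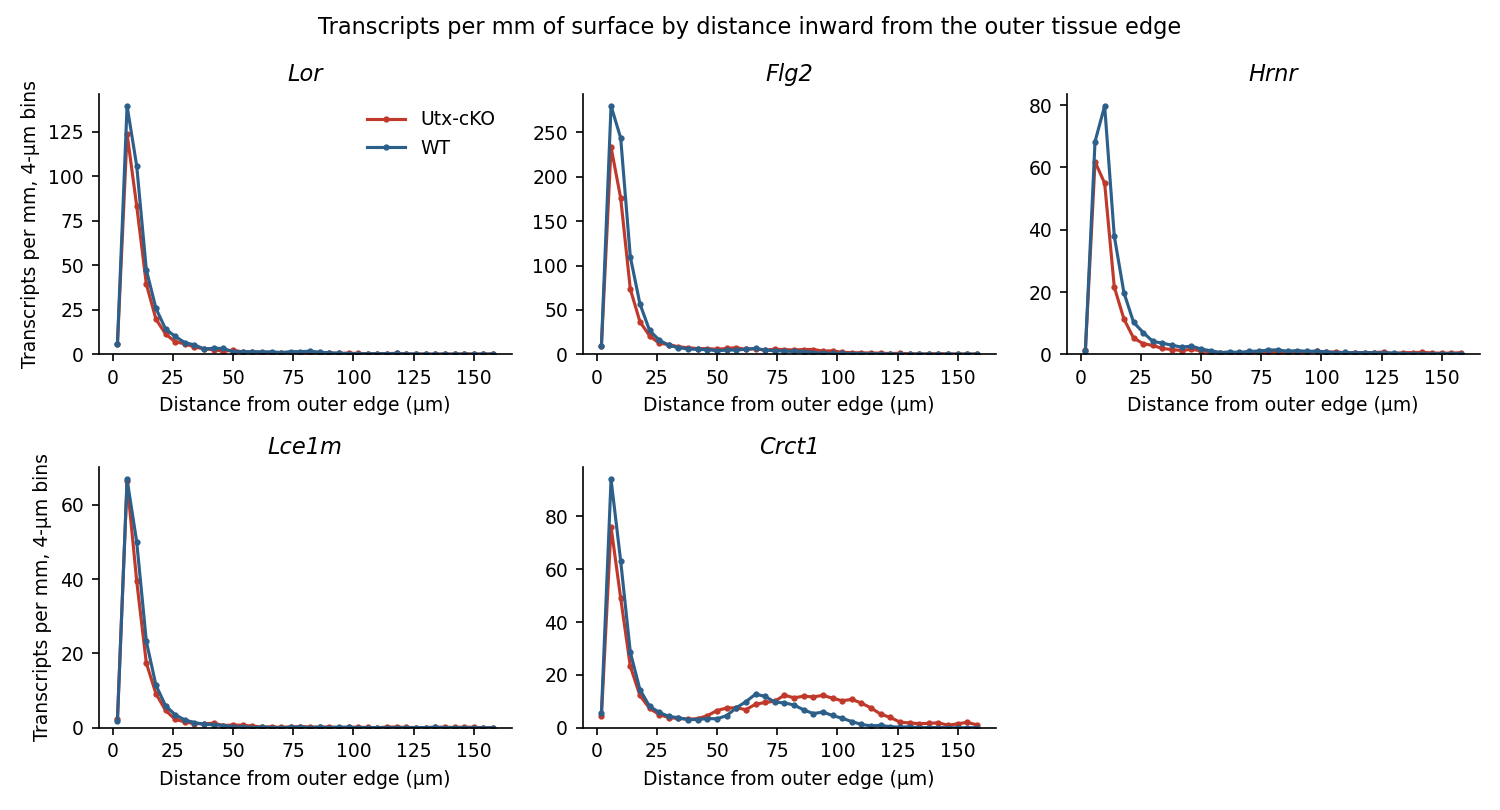
Transcripts per mm of surface (y axis) in 4-µm bins of distance from the outer edge (x axis, µm), for Utx-cKO and WT. All 5 genes peak between 4 and 8 µm, except Hrnr in WT at 8 to 12 µm, and Crct1 has a second rise beyond 40 µm.

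The peaks of the depth profiles lay in the bin from 4 to 8 µm, except for Hrnr in WT, where it lay from 8 to 12 µm. Lor reached 124 transcripts per mm of surface in Utx-cKO and 140 in WT in its peak bin, and Crct1 76.0 and 94.0. Beyond 40 µm Crct1 rose again, to 12.3 transcripts per mm at 76 to 80 µm in Utx-cKO and 12.7 at 64 to 68 µm in WT. Flg2 had a lower second rise in WT, from 4.05 per mm in the bin centred at 50 µm to 6.72 at 64 to 68 µm. In Utx-cKO it had no clear second rise, with 7.49 per mm in the bins centred at 38 and 58 µm and 5.62 at 50 µm.

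Measured as height above the nearest basal cell, the members stood higher in the Utx-cKO section, where they ranked 24 to 42 of 264 genes, against 44 to 64 of 274 in WT. The strip medians of Lor were 11.9, 10.96, 9.63 and 11.1 µm in Utx-cKO, against 9.40, 8.74, 8.85 and 8.95 µm in WT. Every Utx-cKO strip of Lor lay above every WT strip, and the section medians were 10.9 and 9.003 µm. Flg2 had 10.9 µm in Utx-cKO and 8.94 µm in WT, Hrnr 10.47 and 8.45 µm, and Lce1m 11.01 and 9.30 µm, with strips apart in the same way. Crct1 had 11.3 µm in Utx-cKO and 9.29 µm in WT with overlapping strips, since Utx-cKO strip 3 was at 9.59 µm and WT strip 1 at 9.89 µm.

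This difference was not particular to the 5 genes. Of 376 panel genes, 27.7% had all Utx-cKO strips above all WT strips in height. Krt15 itself lay 4.72 µm from a basal cell in Utx-cKO and 3.89 µm in WT, and Krt1 7.55 and 6.06 µm. Basal cells called at the surface numbered 82.8 per mm in Utx-cKO and 116 per mm in WT, and surface Krt15 was 27380 and 42614 CPM. Krt15 is one of the markers by which basal cells were called, so its level, the basal cell numbers and the heights are not independent. The part of sparser basal cell calls in the greater heights was not tested. Measured from the outer edge, strips overlapped for all 5 members, beside 0.532% of 376 genes with strips apart.

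**Figure D3:**
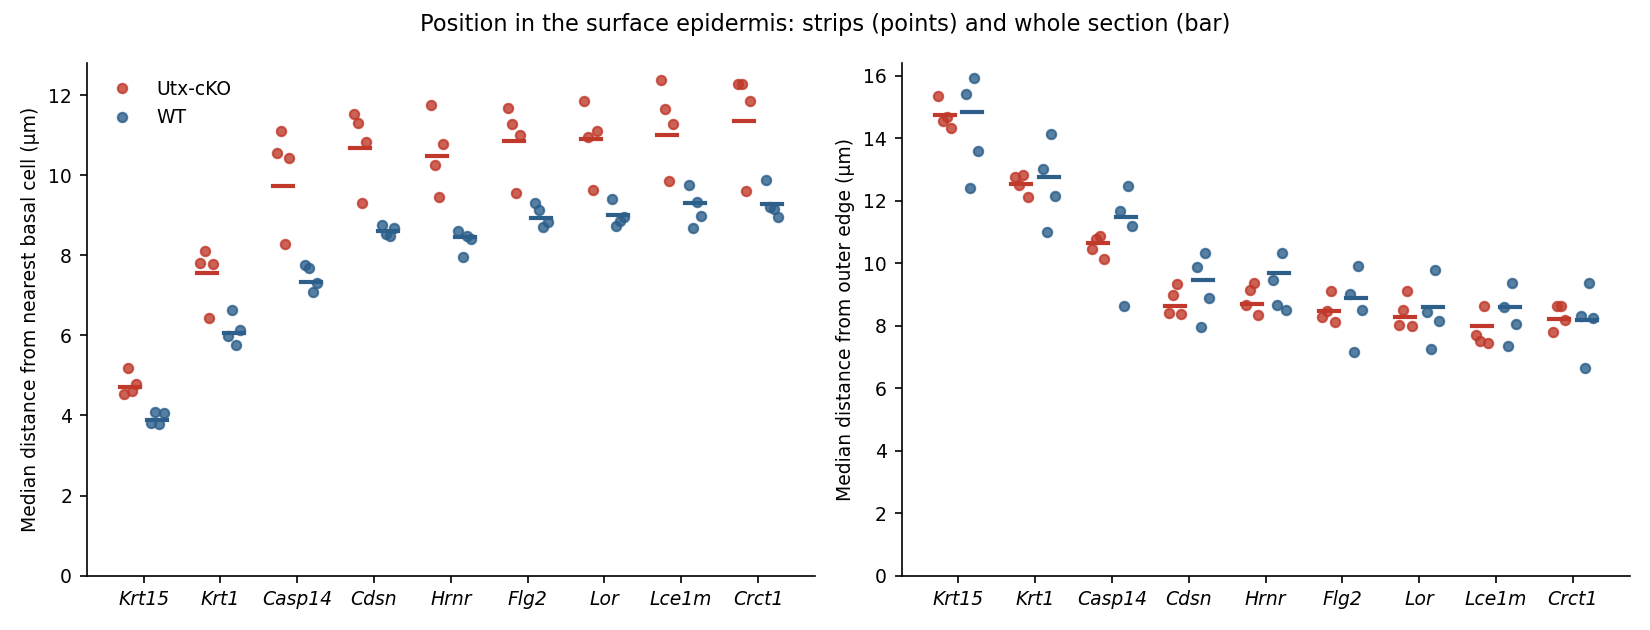
Median distance of transcripts from the nearest basal cell (left, µm) and from the outer edge (right, µm) in each strip (points) and section (bars), for Utx-cKO and WT. Krt15, Krt1, Casp14 and Cdsn mark basal, spinous and granular layers, and the members lie nearer the outer edge than Krt15, Krt1 and Casp14 in both sections.

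In cells, each member was found more often in surface keratinocytes not called basal than in those called basal. A basal call required more basal marker counts than suprabasal and granular marker counts, so this comparison is not independent of the call. Of surface keratinocytes that were not basal, 52.1% held a Lor transcript in Utx-cKO and 58.0% in WT. For Flg2 the shares were 68.6% in Utx-cKO and 75.1% in WT, for Hrnr 37.9% and 46.1%, for Lce1m 28.7% and 30.6%, and for Crct1 40.5% and 47.7%. These cells had a median of 68 transcripts in Utx-cKO and 82 in WT, so the shares also differ in depth. Surface basal cells held Lor in 18.004% of cells in Utx-cKO and 29.2% in WT, at medians of 53 and 68 transcripts. Flg2 was in 27.1% of these basal cells in Utx-cKO and 42.1% in WT, Hrnr in 11.8% and 22.7%, Crct1 in 10.8% and 20.2%, and Lce1m in 9.45% and 13.1%. Dermal cells, which should lack these genes, held a Lor transcript in 1.03% of cells in Utx-cKO and 1.02% in WT, at medians of 51 and 70.

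Within the surface epidermis, levels of the 5 genes were close between the sections. In a section, fewer keratinocytes of a layer and less RNA per keratinocyte cannot be told apart. Lor had 13181, 9784, 12621 and 17814 CPM of surface transcripts in the 4 Utx-cKO strips, against 12665, 11058, 12394 and 18197 CPM in WT. The strips overlapped, and the log2 ratio of Utx-cKO over WT was 0.02 (-0.03 to 0.06). Lce1m had a log2 ratio of 0.08 (0.02 to 0.14), with 6682 CPM in Utx-cKO and 6328 CPM in WT. Of the keratohyalin genes, Flg2 had -0.10 (-0.13 to -0.07) and Hrnr -0.22 (-0.28 to -0.17). Crct1 had -0.02 (-0.07 to 0.03). A ratio of 1.5-fold either way, a rule of size and no test, was passed by 0 of the 5 members, beside 14.6% of 371 genes. Strips overlapped for all 5, beside 3.77% of genes with strips apart.

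Per mm of covered surface, all 5 members had fewer surface transcripts in Utx-cKO, as had the panel as a whole. Lor had 306 per mm in Utx-cKO and 367 per mm in WT, a log2 ratio of -0.26. Lce1m had 147 and 169 per mm (-0.20), and Crct1 190 and 233 per mm (-0.30). Flg2 had 592 and 771 per mm (-0.38), and Hrnr 167 and 236 per mm (-0.50). All panel genes together had 21953 surface transcripts per mm in Utx-cKO and 26630 in WT, a log2 ratio of -0.28.

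Hrnr varied most between strips. It had 102, 46.3, 223 and 264 surface transcripts per mm in the Utx-cKO strips, against 190, 40.4, 562 and 177 in the WT strips. WT strip 3 was the highest and WT strip 2 the lowest of the 8, so the WT strips spanned all of the Utx-cKO strips. Lce1m had 114, 63.0, 233 and 158 per mm in Utx-cKO and 175, 48.3, 290 and 166 in WT. Lce1m too was highest in WT strip 3 and lowest in WT strip 2. Over all 8 strips Crct1 had the smallest ratio of highest to lowest, although Flg2 was more even within Utx-cKO, at 475 to 651 per mm. Crct1 had 228, 162, 226 and 138 per mm in Utx-cKO, against 249, 204, 290 and 201 in WT.

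**Figure D4:**
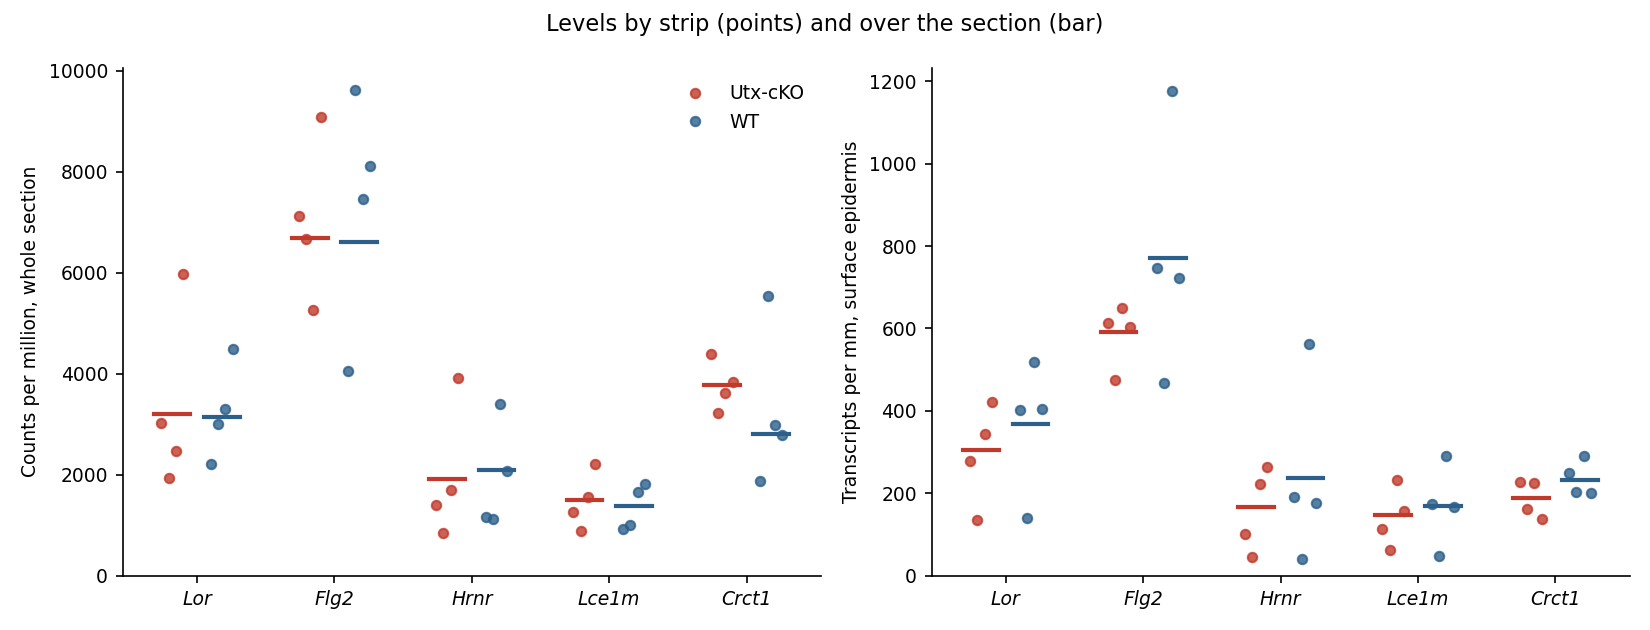
Left, CPM over all transcripts, and right, surface transcripts per mm of covered length, for each member in each strip (points) and section (bars), Utx-cKO left of WT. The strips of the 2 sections overlap for every member on both scales.

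The upper follicle zone was taken as tissue within 15 µm of cells with at least 2 transcripts of Krt79, Gata6 or Pglyrp3, none of them members. Its deep part, more than 40 µm from the outer edge, was set after the data were seen. Crct1 was the only member with a large share there: 46.6% (45.7% to 47.6%) of its transcripts in Utx-cKO and 30.6% (29.7% to 31.5%) in WT. By strip the share was 43.3%, 27.8%, 56.8% and 44.7% in Utx-cKO, against 28.1%, 26.7%, 41.6% and 19.3% in WT. Utx-cKO strip 3 was the highest, and the strips overlapped. Flg2 had 11.6% in Utx-cKO and 6.63% in WT, Hrnr 5.98% and 6.29%, Lor 4.39% and 5.09%, and Lce1m 2.85% and 1.48%. No member had strips apart in this share, beside 5.49% of 474 genes.

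The larger Crct1 share in Utx-cKO came with a larger zone. The deep upper follicle zone held 23.4% of all panel transcripts in Utx-cKO and 11.7% in WT. Deep upper follicle cells numbered 154 per mm in Utx-cKO and 73.1 per mm in WT. Both zone and cells rest on a count of marker transcripts, and the marker Krt79 was itself higher in Utx-cKO. Its log2 ratio was 1.25 over the whole section, 0.82 in keratinocytes and 0.43 within the zone. The part of the Krt79 level in the size of the zone was not tested. Relative to the transcripts of the zone itself, Crct1 was at 7523 CPM in Utx-cKO and 7292 CPM in WT, a log2 ratio of 0.04 (-0.02 to 0.11). This near equality did not hold by cell class. Deep keratinocytes not called upper follicle held 2148 Crct1 transcripts in Utx-cKO and 1204 in WT, at 4367 and 2740 CPM. Deep upper follicle cells held 2385 and 1725, at 6298 CPM in Utx-cKO and 8025 CPM in WT. Crct1 was in 21.7% of deep upper follicle cells in Utx-cKO and 29.2% in WT, at medians of 71 and 91 transcripts. Linked groups of at least 3 such cells, here called follicle profiles, numbered 218 in Utx-cKO and 143 in WT. A profile held a median of 12 Crct1 transcripts in both sections, and at least 10 in 53.7% of profiles in Utx-cKO and 55.9% in WT. Crct1 transcripts of the zone lay at a median depth of 87.9 µm in Utx-cKO and 72.3 µm in WT, beside 95.1 and 74.7 µm for Krt79.

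Relative to all transcripts of the deep upper follicle zone, Lor and Hrnr were lower in the Utx-cKO section. Hrnr had 364, 728, 431 and 724 CPM in the Utx-cKO strips, against 1207, 1217, 1004 and 1280 CPM in the WT strips. Every Utx-cKO strip lay below every WT strip, and the log2 ratio was -1.20 (-1.41 to -0.99). Lor had 332, 742, 644 and 865 CPM in Utx-cKO, against 846, 1553, 1619 and 1296 CPM in WT, with a log2 ratio of -1.18 (-1.37 to -0.997). Only Utx-cKO strip 4 of Lor reached into the WT range. The counts are small, 329 and 467 for Hrnr and 405 and 568 for Lor, in Utx-cKO and WT. Per mm of covered surface the differences were smaller, with strips overlapping for both genes. Lor had 14.9 per mm in the Utx-cKO zone and 20.7 in WT (log2 ratio -0.48), and Hrnr 12.1 and 17.0 (-0.50). The other members were higher on that scale, Crct1 by 0.75, Flg2 by 0.54 and Lce1m by 0.78. All panel genes of the zone had 24750 per mm in Utx-cKO and 15179 in WT (0.71). Hrnr in the Utx-cKO zone, at 488 CPM, was not far above its 322 CPM in dermal cells of that section, whereas WT had 1123 and 207 CPM.

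Thus 2 of the 4 members with enough counts passed 1.5-fold lower in CPM of the zone. Beside them, 20.3% of 364 genes were past 1.5-fold either way and 10.4% lower. Strips lay apart for 1 of 4, beside 3.3% of genes. Flg2 had 3310 CPM in Utx-cKO and 3724 CPM in WT (log2 ratio -0.17, -0.26 to -0.08), with strips overlapping, and turned to 0.23 without WT strip 3. Lce1m, with 123 and 72 transcripts, was under the minimum of 200 and is given as 183 CPM in Utx-cKO and 173 CPM in WT. In profiles, at least 10 Lor transcripts were found in 6 of 218 in Utx-cKO and 20 of 143 in WT, and 14 of these 20 were in WT strip 3. For Hrnr there were 2 in Utx-cKO and 15 in WT. These profile counts are not scaled, and deep upper follicle cells had medians of 71 transcripts in Utx-cKO and 91 in WT. Profiles also lay at different median depths, 95.1 µm in Utx-cKO and 76.4 µm in WT. Without WT strip 3 the zone's log2 ratio of Lor was -0.92 and that of Hrnr -1.33. Kdm6a in this zone had 1753 CPM in Utx-cKO and 2700 CPM in WT, with strips overlapping. In the surface epidermis it had 2698 CPM in Utx-cKO and 2609 CPM in WT, and in keratinocytes 2263 and 2786 CPM.

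The mix of the 5 genes therefore differed between surface and follicle. At the surface, away from upper follicle cells, Flg2 made up 42.6% of member transcripts in Utx-cKO and 43.7% in WT, and Crct1 13.2% and 12.9%. In the deep zone Crct1 made up 62.1% in Utx-cKO and 53.3% in WT. Lor made up 4.97% in Utx-cKO and 9.98% in WT there, against 21.7% and 20.7% at the surface. These are shares of decoded transcripts within a place, and probe sets differ between genes.

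**Figure D5:**
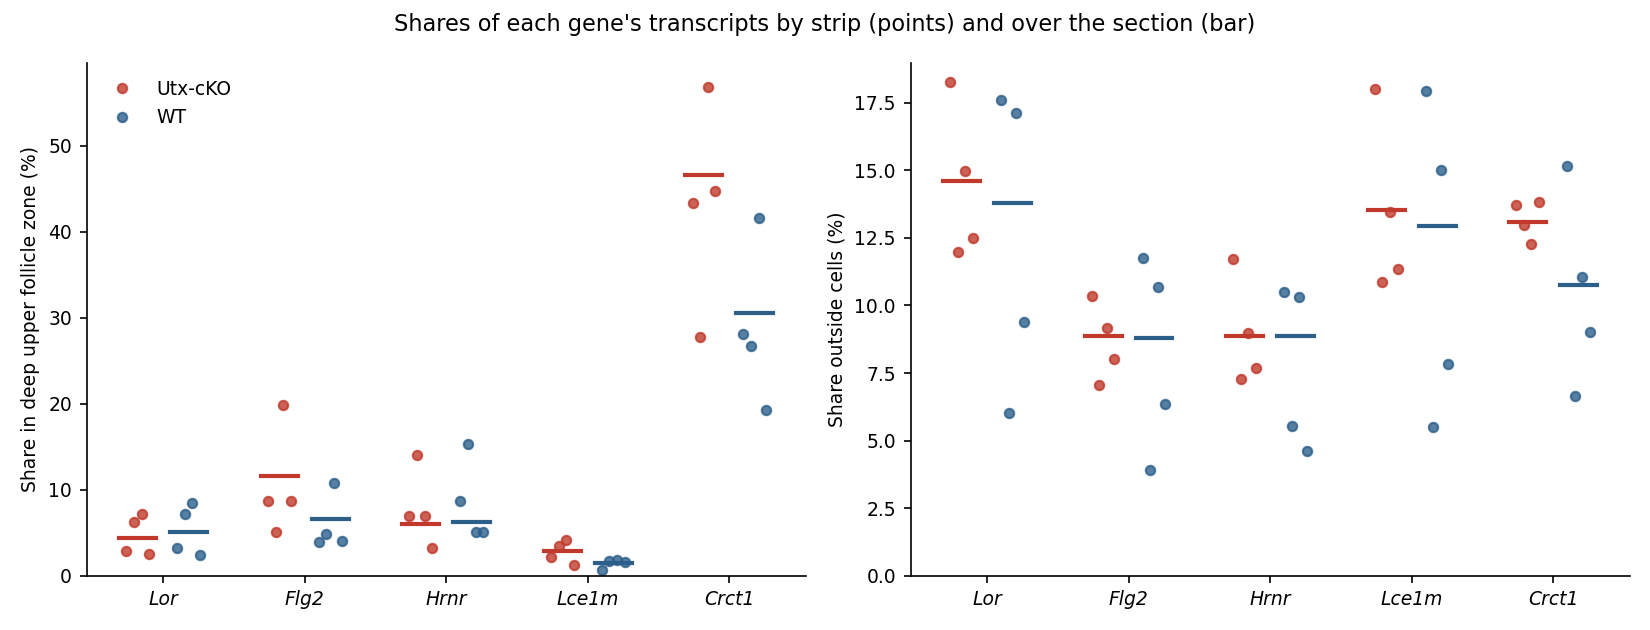
Share of each member's transcripts in the deep upper follicle zone (left, %) and outside all segmented cells (right, %), in each strip (points) and section (bars), Utx-cKO left of WT. Crct1 stands far above the other members in the follicle, and shares outside cells overlap for all 5.

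Transcripts outside all segmented cells made up 14.6% (13.9% to 15.3%) of Lor in Utx-cKO and 13.8% (13.1% to 14.4%) in WT. By strip the Lor shares were 18.3%, 11.99%, 14.97% and 12.5% in Utx-cKO, against 17.6%, 6.03%, 17.1% and 9.38% in WT. The WT strips enclosed nearly the whole Utx-cKO range. Lce1m had 13.5% outside cells in Utx-cKO and 12.95% in WT, Flg2 8.85% and 8.79%, and Hrnr 8.85% and 8.85%. Crct1 had 13.1% (12.5% to 13.7%) in Utx-cKO and 10.8% (10.2% to 11.4%) in WT. Strips overlapped for all 5, beside 1.69% of 474 genes with strips apart.

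Within the surface epidermis the members' share outside cells was above that of most genes. It was 8.83% to 13.5% in Utx-cKO and 8.20% to 11.96% in WT, beside 3.56% and 3.66% for the median gene. The members' transcripts outside cells lay nearer the outer edge than those inside. For Lor the median distance was 6.25 µm outside and 9.18 µm inside cells in Utx-cKO, and 6.52 and 9.41 µm in WT. For Hrnr it was 6.61 and 9.33 µm in Utx-cKO, and 7.41 and 10.4 µm in WT. This was not particular to the members, as Krt15, Krt1, Casp14 and Cdsn had the same direction in both sections. For Krt1 it was 8.59 and 12.97 µm in Utx-cKO, and 8.09 and 12.99 µm in WT. All panel genes together had 10.1 µm outside and 14.2 µm inside cells in Utx-cKO, but 17.1 and 14.6 µm in WT. Few members' transcripts lay more than 30 µm from the centre of any cell with at least 20 transcripts. The shares ran from 0.696% of Flg2 to 1.76% of Lor in Utx-cKO and from 0.856% to 2.16% in WT.

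Few of the members' transcripts lay over a nucleus. At the surface the share over nuclei was 15.8% for Lce1m, 16.2% for Lor and 17.0% for Crct1 in Utx-cKO, and 15.6%, 16.2% and 17.8% in WT. These 3 were the lowest of 279 genes in Utx-cKO and of 290 in WT. Flg2 had 23.5% in Utx-cKO and 22.2% in WT, and Hrnr 21.8% and 21.9%, beside 51.7% for the median gene in Utx-cKO.

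Scaled to all transcripts outside cells, all 5 members passed 1.5-fold higher in Utx-cKO, beside 25.1% of 299 genes higher and 28.1% either way. Log2 ratios were 0.86 for Lor, 0.94 for Lce1m, 0.78 for Flg2, 0.62 for Hrnr and 1.47 for Crct1, and strips lay apart for Crct1 alone, beside 6.02% of genes. The denominators differed: of all panel transcripts, 15.1% lay outside cells in Utx-cKO and 25.3% in WT. Most transcripts outside cells, 81.9% in Utx-cKO and 88.1% in WT, lay in deeper tissue away from surface and upper follicle.

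Over the whole section the 5 genes differed little. Lor had 3024, 1924, 2475 and 5972 CPM in the Utx-cKO strips, against 2212, 3009, 3294 and 4488 CPM in WT, and a log2 ratio of 0.03 (-0.01 to 0.07). Utx-cKO strip 4 was the highest and Utx-cKO strip 2 the lowest, so the strips overlapped. Lce1m had 1503 CPM in Utx-cKO and 1372 CPM in WT (0.13), Flg2 6694 and 6603 CPM (0.02), and Hrnr 1914 and 2097 CPM (-0.13). Leaving out single strips moved Hrnr between -0.55 (without Utx-cKO strip 4) and 0.39 (without WT strip 3). Lor, Flg2 and Lce1m also changed sign, with ranges of -0.31 to 0.23, -0.26 to 0.21 and -0.10 to 0.29. Crct1 had 3782 CPM in Utx-cKO and 2799 CPM in WT, a log2 ratio of 0.43 (0.39 to 0.47), which was 0.59 and past 1.5-fold without WT strip 2. Of the 5, 0 passed 1.5-fold and 0 had strips apart, beside 27.6% and 5.89% of 475 genes. Their median log2 ratio was 0.03, beside 0.22 over all genes.

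Counted in keratinocytes alone, 1 of the 5 members passed 1.5-fold, lower in Utx-cKO. Hrnr had 3238 CPM in Utx-cKO and 5017 CPM in WT, a log2 ratio of -0.63 (-0.69 to -0.58). Beside it, 17.1% of 449 genes passed either way and 2.9% were lower. Lor had -0.42, Flg2 -0.43, Lce1m -0.32 and Crct1 -0.06, which turned to 0.066 without WT strip 2 and to 0.10 over the nucleus alone. The median over the members was -0.42, beside 0.14 over all genes, and strips overlapped for all 5, beside 7.8% of genes apart. Without WT strip 3 Hrnr was at -0.24, under 1.5-fold. It was also under 1.5-fold without Utx-cKO strip 1 (-0.42), strip 2 (-0.53) or strip 3 (-0.53), at a score of at least 30 (-0.52) and over the nucleus alone (-0.54). Lor passed 1.5-fold lower without Utx-cKO strip 4 (-0.78), at a score of at least 30 (-0.67) and as mean counts per cell (-0.67). Flg2 passed as mean counts per cell (-0.69). Keratinocytes numbered 20371 in Utx-cKO and 15721 in WT, and upper follicle cells 4608 and 2406. The part of these cell numbers in the ratios was not tested.

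Other genes of cornification were taken from a list of envelope, keratohyalin, lipid barrier and protease genes, of which 41 besides the members were on the panel. Over the whole section 19 of the 41 were at least 1.5 times higher in Utx-cKO and 0 lower, with a median log2 ratio of 0.52. Of all 475 genes 27.6% passed either way, and their median was 0.22. They included 11 Sprr genes, precursors of the envelope, led by Sprr2a2 (1.43), Sprr2a1 (1.23), Sprr2a3 (1.20) and Sprr1b (1.17). Sprr2b and Sprr2i had 1.02 each, Sprr2h 1.01, Sprr2f 0.97, Sprr2d 0.88 and Sprr2e 0.82. The Sprr2 genes are close copies, and the labels do not say whether their probes tell them apart. Elovl4, an elongase of very long chain fatty acids, had 1.33, and the spinous keratin Krt1 0.90. Others were Sprr1a (0.91), Krt2 (0.82), the protease Asprv1 (0.74), Lce1f (0.69), the transcription factor Grhl3 (0.65), the ceramidase Acer1 (0.64) and involucrin, Ivl (0.60).

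In keratinocytes 10 of 40 of these genes were past 1.5-fold higher and 3 lower, with a median of 0.12, beside 17.1% of all 449 genes either way, 2.9% lower and a median of 0.14. The higher ones were Sprr2a2 (1.29), Sprr2a3 (1.25), Sprr1b (1.11), Sprr2a1 (1.06), Elovl4 (0.90), Sprr2b (0.76), Sprr2d (0.74), Sprr2i (0.71), Sprr2e (0.67) and Sprr2f (0.59). Tgm3 (-1.42), Aloxe3 (-0.66) and the thioesterase Them5 (-0.63) were lower. Some list genes, among them Tgm3, Aloxe3, Them5 and Elovl4, were also markers by which keratinocytes were called. Their ratios in keratinocytes are therefore not independent of the call. Among transcripts outside cells 16 of 21 were higher and 0 lower, with a median of 0.997 on that scale, beside 25.1% of all 299 genes higher and a median of 0.20. They ran from Elovl4 (2.47), Krt1 (2.08), Sprr1a (1.94), Asprv1 (1.85), the lipid transporter Abca12 (1.64), Sprr2a1 (1.36), Sbsn (1.25) and the desmosomal cadherin Dsc1 (1.24) to Serpinb2 (1.12), Aloxe3 (1.01), Ivl (0.997), corneodesmosin, Cdsn (0.93), Dsg1a (0.88), Krt77 (0.86), Them5 (0.86) and Dsg1b (0.81).

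Within the surface epidermis 6 of 35 of these genes were past 1.5-fold higher and 1 lower, with a median of 0.20, beside 14.6% of all 371 genes either way and a median of 0.03. The higher ones were Sprr1b (1.75), Sprr2a2 (1.34), Sprr2a3 (1.10), Sprr2a1 (1.03), Sprr2b (0.96) and Krt1 (0.86). The transglutaminase Tgm3 was lower (-1.32), at 380 CPM in Utx-cKO and 948 CPM in WT. In the deep upper follicle zone 7 of 31 were higher and 3 lower, with a median of -0.09, beside 20.3% of all 364 genes either way, 10.4% lower and a median of -0.02. There Sprr2a2 (1.73), Sprr2a3 (1.45), Sprr2a1 (1.36), Sprr2h (0.95), Krt1 (0.90), Elovl4 (0.67) and Sprr2b (0.60) were higher. The lipoxygenase Aloxe3 (-0.83), the transcription factor Klf4 (-0.68) and Serpinb11 (-0.67) were lower, beside Lor and Hrnr. Strips overlapped for each list gene besides Hrnr named here at the surface and in the follicle zone. Asprv1, under 1.5-fold at the surface (0.53), had strips apart there, higher in Utx-cKO, beside 3.77% of all genes. Over the whole section they lay apart for Elovl4 and Sprr2i, both higher, beside 5.89% of all genes. In keratinocytes they lay apart for Elovl4 (higher) and Aloxe3 (lower), beside 7.8%. Outside cells they lay apart for Elovl4, Krt1, Abca12 and Sprr2a1, all higher, beside 6.02%.

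Likeness to other panel genes was described by the correlation of log2(count + 1) over 50-µm squares of tissue, 4903 in Utx-cKO and 4856 in WT. Squares of a section share depth and tissue layer and are not independent. Among genes that are no members, Lor, Hrnr and Lce1m were most like Hal (histidine ammonia-lyase), Calm4 and Krt1. For Lor and Hal r was 0.88 in Utx-cKO and 0.89 in WT, for Hrnr and Hal 0.80 and 0.85, and for Lce1m and Hal 0.80 and 0.80. Of those genes Flg2 was most like Krt77, a suprabasal keratin, with 0.92 in Utx-cKO and 0.93 in WT, then Calm4 and Krt1. Crct1 was most like Asprv1, a protease of the granular layer, with 0.83 in Utx-cKO and 0.84 in WT, then Krt77 and Dsg1a. Several pairs of members were as much alike. For Lor and Flg2 r was 0.87 in Utx-cKO and 0.92 in WT, for Lor and Lce1m 0.84 and 0.85, for Lor and Hrnr 0.83 and 0.85, and for Flg2 and Crct1 0.79 and 0.84. The lowest values were those of Crct1 with Hrnr, 0.59 in Utx-cKO and 0.72 in WT, and with Lce1m, 0.62 and 0.72.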

How the data were processed

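Both sections were probed for 480 genes, per the labels. The deposited tables give each decoded transcript with a position, a cell and a quality score, and counts per segmented cell. No label or file header names the decoding or segmentation software. Transcripts scoring at least 20 were counted, and cells holding at least 20 of them were kept. Members and lists were chosen with earlier results of these data known. Rules for strips, cells, zones and the outer edge were set after seeing the data. Keratinocytes drew at least 6% of counts from basal, suprabasal, granular and upper follicle markers, none of them members. Basal cells also drew at least 15% from basal markers, Krt15 included, and more from these than from suprabasal and granular markers together. Dermal cells had at least 3 dermal marker transcripts. Strips are connected areas with at least 1000 kept cells. Covered length counts 20-µm steps holding a surface keratinocyte. Ratios use genes with at least 200 counts, with intervals from conditional binomial or Clopper-Pearson limits, tested on simulated data. All members are named, with the 3 most alike genes each and list genes past 1.5-fold. Python 3.11.15 and SciPy 1.17.1 were used.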

Additional observations from a re-analysis of the deposited data

How the results depend on the processing

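No paired analysis was possible because there was 1 section per group. The members' median log2 ratio over the whole section, 0.03, changed sign with the scale: -0.17 inside cells, -0.049 over nuclei, -0.30 scaled to other epithelial markers, -0.26 per mm of tissue, -0.048 without the 10 most abundant genes, 0.14 on the left side, -0.073 on the right, and -0.19 to 0.29 when each strip was left out. In keratinocytes the median of -0.42 stayed below 0 under these settings: -0.67 as mean counts per cell, -0.55 centred on all genes, -0.24 over nuclei, and -0.56 to -0.21 leaving out strips. In the deep upper follicle zone Lor was -0.88 and Hrnr -0.84 at a radius of 30 µm, and Hrnr -1.43 at 7.5 µm. Leaving out strips gave -1.36 to -0.92 for Lor and -1.33 to -1.06 for Hrnr. Flg2 there was -0.020 at a score of 30, -0.37 at 7.5 µm and -0.0093 at 30 µm (strips -0.40 to 0.23). Crct1 there was -0.038 inside cells, -0.23 at 7.5 µm, 0.23 at 30 µm and -0.028 deeper than 60 µm (strips -0.029 to 0.13). The zone alternatives were chosen after seeing the data. The members' height difference of 1.92 µm was 12.02 µm from the nearest dermal cell and -0.40 µm from the outer edge, where Crct1 alone was slightly positive (0.025 µm), and 1.58 to 2.39 µm leaving out strips. Hrnr minus Lce1m in Utx-cKO reversed to 1.75 µm from dermal cells. The pooled share of members in the upper follicle zone, 7.27 percentage points higher in Utx-cKO, rests mostly on Crct1 (52.8% in Utx-cKO, 37.3% in WT), while Hrnr ran the other way (-0.558, with -2.18 to 1.65 leaving out strips). The pooled value was 4.40 at 7.5 µm, 8.30 at a score of 30, 6.56 deeper than 40 µm alone and 3.22 to 9.92 leaving out strips. For Lor that difference reversed to -0.700 deeper than 40 µm, -0.382 without Utx-cKO strip 3 and -0.948 without WT strip 4, with 4.18 as the highest value over the strips. The share outside cells, 0.800 points higher in Utx-cKO, was 2.53 counting cells under 20 transcripts as outside, reversed to -0.328 without WT strip 4, and reached 1.87 leaving out others. The cause of these changes was not tested. Low counts of Lor, Hrnr and Lce1m in the deep follicle zone limit what depth can show for them there.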
